A study of Sus scrofa with 4 samples.

Results

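Open chromatin was examined around 10 serum-induced immediate early genes, EGR1, EGR2, EGR3, SRF, NR4A1, IER2, IER3, DUSP1, BTG2 and ZFP36, in porcine fetal fibroblasts (PFFs) labelled as skin. The genes were taken by name, and a peak was counted when it overlapped the RefSeq gene model (Sscrofa11.1) or the 20 kb on either side. These windows covered 449 kb and held 88 of 121788 union regions, a union region being the merged stretch of overlapping peaks of any of the 4 libraries. The series addressed BRG1 over-expression in fibroblasts meant as donors for cloning, and read chromatin openness by ATAC-seq, an assay whose transposase cuts and tags accessible DNA. There were 2 control libraries, genotype WT with pTK-642 (control 1 and control 4), and 2 BRG1-overexpressed libraries with pTK-642-BRG1 (BRG1 1 and BRG1 4). BRG1 (gene SMARCA4) is a catalytic, nucleosome-moving subunit of BAF remodelling complexes. The sources used here give neither the promoter on the vector nor the level of BRG1 reached. All 4 libraries came from cells under serum starvation, and no serum-stimulated cells were part of these comparisons. Whether the 2 libraries of a group are separate cultures is not stated, so a p-value reflects only how these samples vary, and that variation may be technical. In bulk chromatin, fewer cells with an open site and a less open site in every cell cannot be told apart.

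Immediate early genes are transcribed within minutes of growth factor or serum addition, without new protein synthesis. In the textbook pathway, serum activates signalling that acts on SRF and its partners at CArG box elements of gene promoters. Some of the induced products are transcription factors that start the next wave of transcription, and others restrain it by removing phosphate from MAP kinases or by destabilising messenger RNA. In starved fibroblasts most of these genes are little transcribed and wait to be induced.

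Peaks numbered 90851 to 107475 per library, and relative depth, read from the lowest background of each list, was 81.2% to 93.5% of control 1 in the other libraries. BRG1 4 stood apart by the shortest list and by peak width, its median being 541 bp and that of the others 396 to 404 bp. At most 0.202% of the intervals of any library pair were identical. A gene end was defined as 1 kb on each side of either end of a model, because the gene table gives no strand. By this measure 12 of 14 fibroblast markers had a peak in each library, beside 68.2% of all protein-coding genes. The exceptions were DCN, with none, and FN1, with a peak in 1 library. Of 18 matched markers of epithelium, endothelium, immune cells, melanocytes and muscle, 8 had one in each library and 10 in none, among them KRT5, CDH1, PECAM1, PTPRC, TYR and MYF5. Each peak is described below by the percentile of its −log10 p-value within its own list, where the weakest peaks lie near 0 and the strongest near 100.

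**Figure D1:**
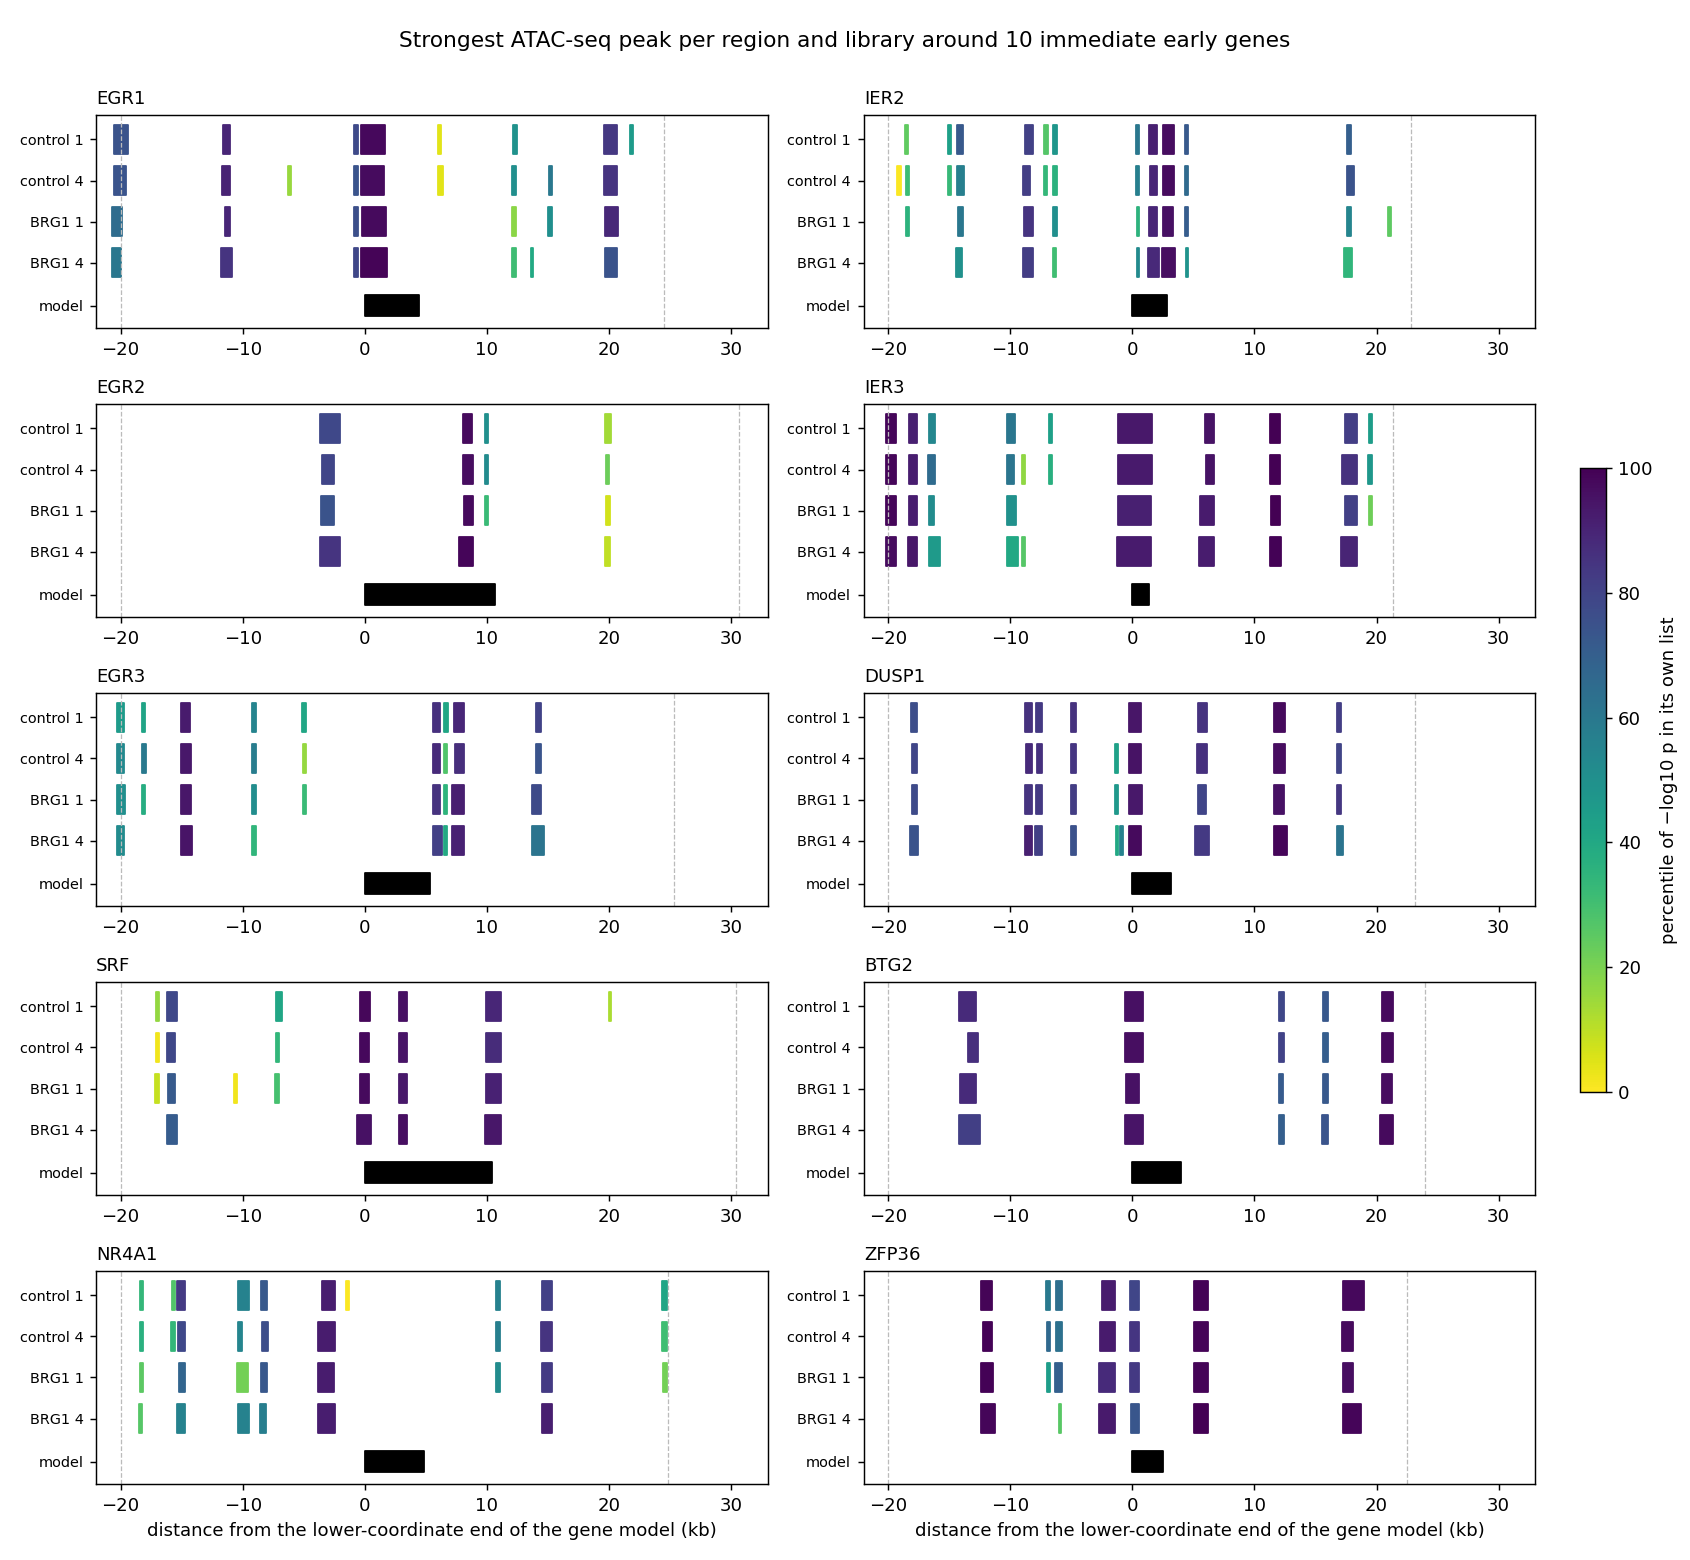
Peaks around the 10 genes, by library; the x axis is the distance from the lower-coordinate end of the gene model in kb, the black bar is the model, dashed lines mark the 20 kb limits, and the colour gives the percentile of the strongest peak of each region within its own list. Dark bars recur at the same places in all 4 libraries (61 of 88 regions), and most gaps are in pale, weak regions.

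In every library the windows had a higher median of peaks per 100 kb than the windows of all protein-coding genes, as given below. They held 82 (control 1), 85 (control 4), 77 (BRG1 1) and 66 (BRG1 4) peaks. The BRG1 mean was 71.5 ± 7.78 and the control mean 83.5 ± 2.12 (SD, n = 2 per group, two-sided exact permutation p = 0.33). Both BRG1 libraries lay below both controls, as they did for all peaks, and the ratio of 0.856 stood beside 0.877 for whole lists. As a share of the list, the windows took 0.0763%, 0.0802%, 0.0799% and 0.0726% of peaks in control 1, control 4, BRG1 1 and BRG1 4, so the groups overlapped (ratio 0.975, exact permutation p = 0.67). Without BRG1 4 that ratio turned to 1.02. The length under peaks was 51538 bp, 50603 bp, 48835 bp and 52668 bp in the same order, with a ratio of 0.994 (exact permutation p = 1), which turned to 1.03 without BRG1 1 and 1.00 without control 1. With 2 libraries per group 0.33 is the smallest p this exact test can give, so no difference here could pass 0.05.

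The order of the windows by peak number differed between libraries. IER2 had 11, 12, 10 and 8 peaks in control 1, control 4, BRG1 1 and BRG1 4, IER3 had 11, 12, 9 and 9, and NR4A1 had 11, 10, 8 and 6. In those 3 of 10 windows both BRG1 libraries held fewer peaks than both controls, as did 19.0% of the windows of all protein-coding genes, with shorter BRG1 lists throughout. More peaks in both BRG1 libraries than in both controls were found in 0 of 10 windows and in 1.29% of all. BTG2 held the same 5 peaks in every library. DUSP1 had 8 and 9 peaks in control and 9 and 10 in BRG1 libraries, so that the groups met at 9. Per 100 kb, the median over the 10 windows was 18.3, 20.05, 18.3 and 14.8 peaks in control 1, control 4, BRG1 1 and BRG1 4, against 6.93, 6.83, 6.37 and 6.02 over the windows of all 19550 protein-coding genes. All 10 windows exceeded that median in 3 libraries and 9 of 10 did in BRG1 4, the exception being EGR2 with 3 peaks. The 10 windows were 41.3 to 50.6 kb long, whereas those of all genes grow with the length of the model. Genes of like length or like gene density were not compared, so the gap cannot be assigned to these genes as such. The windows are not private to these genes: 27 of the 88 regions overlapped another protein-coding model, and 51 were nearest to an end of the gene itself.

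**Figure D2:**
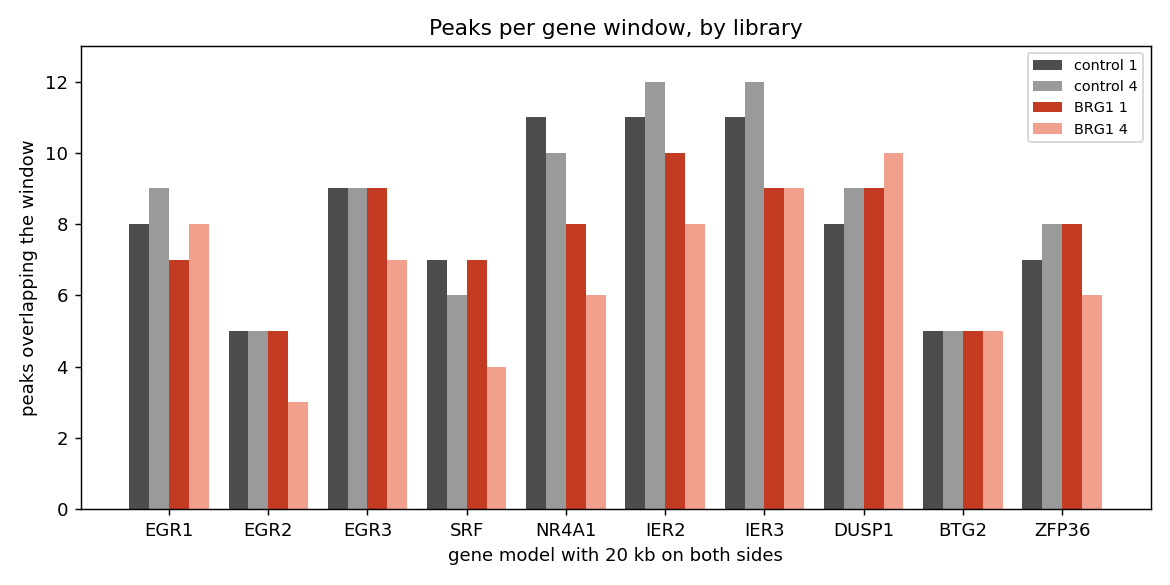
Number of peaks overlapping each gene model with 20 kb on both sides, 1 bar per library. IER2, IER3 and NR4A1 show both BRG1 bars below both control bars, a pattern of 19.0% of all protein-coding gene windows, BTG2 shows 5 peaks in each library, and DUSP1 shows 8 to 10.

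EGR1, a zinc finger transcription factor and the classical serum-response reporter, lies on chromosome 2 from 140440829 to 140445302. Its leading region (140440556 to 140442611) covered the lower-coordinate end and a stretch of the model, at percentiles of 97.8 (control 1), 97.0 (control 4), 97.4 (BRG1 1) and 98.99 (BRG1 4). The groups overlapped, and the BRG1 library values lay on both sides of control 1. The peak was 1912, 1812, 2024 and 2054 bp wide in the same order, wider than the gene-end peaks of 99.7% of the genes that had one in all 4 libraries. Both BRG1 widths lay above both control widths (2039 ± 21.2 bp against 1862 ± 70.7 bp, SD, n = 2 each, exact permutation p = 0.33). Summits fell within 12 bp of each other across libraries, 193 to 205 bp inside the model. A narrow companion region 533 bp outside the same end (140439958 to 140440296) was also called in all 4 libraries, at 74.2 to 78.6. Farther out, a region 7576 bp beyond the higher-coordinate end (140452878 to 140453266) ranked at 49.1 and 50.8 in the controls and at 17.3 and 30.9 in the BRG1 libraries, 1 of the widest gaps between groups in these windows (difference −25.8, exact permutation p = 0.33). That gap was −19.6 with lists of equal length.

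EGR2, also known as KROX20, is a related zinc finger factor on chromosome 14 (66280665 to 66291308). Its leading region lay inside the model, 1814 bp from the higher-coordinate end (66288403 to 66289494), at 97.4 (control 1), 96.8 (control 4), 97.7 (BRG1 1) and 98.7 (BRG1 4). Here both BRG1 values exceeded both control values, by 1.09 in the mean (exact permutation p = 0.33). A small region 535 bp inside the higher end (66290532 to 66290773) was called at 50.3, 52.2 and 32.2 in control 1, control 4 and BRG1 1 and was not called in BRG1 4. EGR2 therefore lacked a gene-end peak in BRG1 4, although the stronger region nearby was called in each library. The other leading region of the window covered an end of ADO (66276994 to 66279049, 74.6 to 85.0). BRG1 4 called it as 1 peak and the other 3 libraries as 2 peaks each.

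EGR3, the third EGR factor of the set, lies elsewhere on chromosome 14 (6943184 to 6948507). Its gene-end region began 250 bp outside the higher-coordinate end (6948757 to 6949487), at 86.2 (control 1), 88.0 (control 4), 85.2 (BRG1 1) and 81.1 (BRG1 4), so that the groups did not overlap, although they did with lists of equal length. A region 1792 bp outside the same end (6950299 to 6951336) had the opposite order, at 89.2 and 86.9 in control and 91.7 and 90.6 in BRG1 libraries. The differences between group means were −3.93 and 3.17, and neither could pass the exact permutation test (p = 0.33 each). The strongest region of the window (6928148 to 6929026) lay 1198 bp from an end of the neighbouring BIN3, at 92.9 to 94.8. Regions 17949 and 4801 bp beyond the lower end were called in 3 libraries and not in BRG1 4.

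SRF, the MADS box factor that binds CArG boxes, is itself a gene of this early set and lies on chromosome 7 (38213300 to 38223686). Its lower-coordinate end carried a region (38212637 to 38213842) at 98.3 (control 1), 97.8 (control 4), 97.5 (BRG1 1) and 95.5 (BRG1 4). The control values lay above both BRG1 values, with means of 98.1 ± 0.338 and 96.5 ± 1.38 (n = 2 each, SD; exact permutation p = 0.33). In BRG1 4 the peak was 1206 bp wide and the others 719 to 839 bp. A second strong region lay inside the model, 2791 bp from that end (38216091 to 38216787), at 93.6 to 96.3. The region that spans the higher end of SRF and an end of CUL9 (38223187 to 38224472) ranked higher in both BRG1 libraries, at 91.0 and 93.8 against 89.3 and 87.7. The 2 ends of the SRF model thus showed opposite orders of the groups. On the PTK7 side, 2 weak regions were called in every library but BRG1 4.

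NR4A1, an orphan nuclear receptor, is listed in this gene table as a pseudogene (chromosome 5, 17403088 to 17407918), unlike the other 9 members. No library called a peak at its ends. The nearest region called in all 4 libraries began 2437 bp outside the lower-coordinate end (17399239 to 17400651), at 92.2 (control 1), 92.5 (control 4), 92.5 (BRG1 1) and 91.9 (BRG1 4), with overlapping groups. No region overlapped the model itself. A region at an end of the neighbouring LOC110260567 (17387717 to 17388374) ranked at 83.0 and 78.5 in control and 67.6 and 56.2 in BRG1 libraries, a difference of −18.8 (exact permutation p = 0.33) that was −16.5 with lists of equal length. Beside it lay a control-only region (17387238 to 17387563), meaning that both control libraries and no BRG1 library had a peak there. The region at an end of ATG101 (17417562 to 17418457) was at 81.0, 84.8, 82.5 and 91.8.

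IER2, a nuclear protein encoded by a short early gene, lies on chromosome 2 (65909638 to 65912491). Its model was overlapped by 3 regions, all called in each library. The strongest covered the higher-coordinate end (65912095 to 65913160), at 96.5 (control 1), 97.2 (control 4), 96.1 (BRG1 1) and 96.4 (BRG1 4). The gap between groups was small, with control 1 only just above BRG1 4. The middle region (65910894 to 65911806) ranked at 88.3 to 91.1. The region near the lower end (65909961 to 65910196) was weaker, at 60.5 and 57.2 in control and 35.9 and 52.4 in BRG1 libraries, and the groups overlapped with lists of equal length. The widest gap of all regions in the windows was found 14497 bp beyond IER2, inside the model of NACC1 (65926988 to 65927809). It ranked at 70.2 and 74.4 in control and 54.4 and 34.5 in BRG1 libraries, a difference of −27.9 (exact permutation p = 0.33), and −24.4 with lists of equal length. Control-only regions lay 14851 and 6921 bp beyond the lower end.

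IER3, an early gene whose product modulates cell survival, has the shortest model of the set (chromosome 7, 23265560 to 23266905). A single region covered the whole model and an end of the neighbouring FLOT1 (23264327 to 23267139), at 93.7 (control 1), 93.0 (control 4), 91.1 (BRG1 1) and 92.8 (BRG1 4). Its peaks were 2738 to 2781 bp wide, among the widest of all gene-end peaks, and cannot be split between IER3 and FLOT1. Within it the summit lay 1250 to 1255 bp from the lower end of IER3 in 3 libraries and at −828 bp in BRG1 4, on the FLOT1 side. A region 9929 bp beyond the higher end (23276834 to 23277718) had the highest mean percentile of all 88, at 99.8, 99.6, 99.6 and 99.3 in control 1, control 4, BRG1 1 and BRG1 4. It overlapped no other protein-coding model, and its nearest gene end was that of IER3. A further region 4106 bp beyond that end (23271011 to 23272274) ranked at 95.2 in both controls and at 92.7 and 92.5 in the BRG1 libraries. With lists of equal length the groups overlapped at the former (difference −0.255) and not at the latter (−1.98). A region 15748 bp out (23282653 to 23283976) had overlapping groups, at 81.9, 85.7, 80.9 and 90.1.

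DUSP1, or MKP1, a phosphatase that inactivates MAP kinases, lies on chromosome 16 (51457924 to 51461095). The region over its lower-coordinate end (51457615 to 51458682) ranked at 94.5 (control 1), 95.2 (control 4), 93.4 (BRG1 1) and 97.6 (BRG1 4). The BRG1 libraries lay on either side of the controls. Summits fell 133 to 136 bp inside the model, the tightest agreement among the gene ends. All 10 regions of the window had DUSP1 as their nearest protein-coding gene end, and 8 were called in all 4 libraries. The strongest lay 8430 bp beyond the higher end (51469525 to 51470563), at 97.4, 96.9, 95.5 and 98.7. Close to the lower end, BRG1 4 called a peak of its own (51456915 to 51457132, percentile 56.0), and a region 1170 bp out was called in every library but control 1, at 40.2 to 46.8. These 2 small regions account for the higher peak number of the DUSP1 window in BRG1 4.

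BTG2, an antiproliferative gene, lies on chromosome 9 (64033853 to 64037795) with no other protein-coding model within 20 kb. It was the most uniform of the set, with 5 regions and all 5 in each library. The region over its lower-coordinate end (64033242 to 64034721) ranked at 96.1 (control 1), 96.4 (control 4), 95.5 (BRG1 1) and 94.7 (BRG1 4), both BRG1 values just below both control values. Summits lay within 16 bp of each other, from −3 to 13 bp of that end. A region 8040 bp beyond the higher end (64045835 to 64046249) ranked at 78.5 and 80.5 in control and 71.6 and 70.2 in BRG1 libraries, with means of 79.5 ± 1.36 and 70.9 ± 0.991 (SD, n = 2 each, exact permutation p = 0.33). The strongest region of the window lay 16341 bp out (64054136 to 64055212), at 96.8 to 97.6 with overlapping groups.

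ZFP36, or TTP, encodes a protein that binds AU-rich messenger RNA and promotes its decay (chromosome 6, 48063732 to 48066235). The region over its lower-coordinate end (48063528 to 48064297) was the weakest gene end of the set, at 79.1 (control 1), 84.5 (control 4), 83.4 (BRG1 1) and 73.4 (BRG1 4). The 2 libraries of each group differed by more than the group means did. A broader region 1403 bp outside the same end (48061003 to 48062329) ranked higher, at 92.5, 92.6, 88.0 and 93.3. The strongest regions of this gene-dense window belonged to neighbours. The one at an end of PLEKHG2 (48068746 to 48069934) ranked at 99.1 to 99.7, and the one over ends of PAF1 and MED29 (48051322 to 48052441) at 98.7 to 99.6. A weak region inside MED29 (48056693 to 48056968) was called at 59.4, 66.0 and 44.6 and not in BRG1 4.

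Gene ends were then compared as a set. A gene-end peak in all 4 libraries was present at 8 of the 10 genes, against 68.2% of all protein-coding genes, the exceptions being EGR2 and NR4A1. No member had a gene-end peak in 1 group alone, beside 0.199% of genes for BRG1 and 0.532% for control. By the mean over libraries the order was EGR1 (97.8), SRF (97.3), IER2 (96.6), BTG2 (95.7), DUSP1 (95.2), IER3 (92.6), EGR3 (85.1) and ZFP36 (80.1). Neighbours in this order had overlapping ranges over the 4 libraries except IER3 (91.1 to 93.7) and EGR3 (81.1 to 88.0). The median of the 8 was 95.3, 95.8, 94.4 and 95.1 in control 1, control 4, BRG1 1 and BRG1 4, and that of all 13334 genes with such a peak was 89.8, 89.4, 89.4 and 88.0. The gene-end peak was the strongest of its window at 3 of 8 members in 3 libraries and 2 of 8 in BRG1 4. The share was 52.7% to 54.2% of all such genes. With only 8 members the shares cannot be separated, and they were not tested.

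Between groups, the gene-end percentile was lower in both BRG1 libraries than in both controls at 5 of 8 members (EGR3, SRF, IER2, IER3 and BTG2), against 24.7% of all genes with such a peak, and higher in both at 0, against 11.8%. In percentile points the differences ran from −0.617 for IER2 to −3.93 for EGR3. Near the top of a list a small step in percentile can span a wide range of signal. At SRF a difference of −1.59 went with −log10 q-values of 301, 270, 236 and 155 in control 1, control 4, BRG1 1 and BRG1 4, which also vary with depth. Since the BRG1 lists are shorter, percentiles from lists of unequal length do not show a change by themselves. With each list cut to its own 90851 strongest peaks, only SRF and BTG2 remained lower in both, 2 of 8 against 12.7% of genes. Their differences were −1.33 and −0.598, and 0 of 8 were higher in both, against 22.9%. Equal list length does not equalise depth. The deposited fold (summit pileup over background) at SRF was 10.4 (control 1), 10.5 (control 4), 10.2 (BRG1 1) and 7.88 (BRG1 4). At BTG2 it was 11.2, 11.9, 11.3 and 8.80. By fold, BRG1 1 lay near or between the controls at these genes and BRG1 4 below them. The adjusted p of the exact permutation test, over all 13334 genes by Benjamini-Hochberg, was 0.915 for each of the 5 and could not have passed 0.05. All 5 stayed below 0 with any 1 library left out, but single libraries moved their size. The difference became −6.01 without BRG1 1 and −1.85 without BRG1 4 at EGR3, and −2.56 and −0.610 at SRF. At IER3 it was −0.593 without BRG1 1 and −2.29 without BRG1 4. At IER2 it was −0.976 without control 1 and −0.258 without control 4, and BTG2 ran from −1.48 to −0.764. For EGR1 and DUSP1 the BRG1 mean was higher by 0.788 and 0.678, and without BRG1 4 it was lower, by −0.0271 and −1.43. For ZFP36 the difference of −3.37 turned to 1.66 without BRG1 4. Peak widths were larger in both BRG1 libraries at EGR1 alone, 1 of 8 against 24.0% of genes, and smaller in both at IER3 and ZFP36, 2 of 8 against 7.19%.

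**Figure D3:**
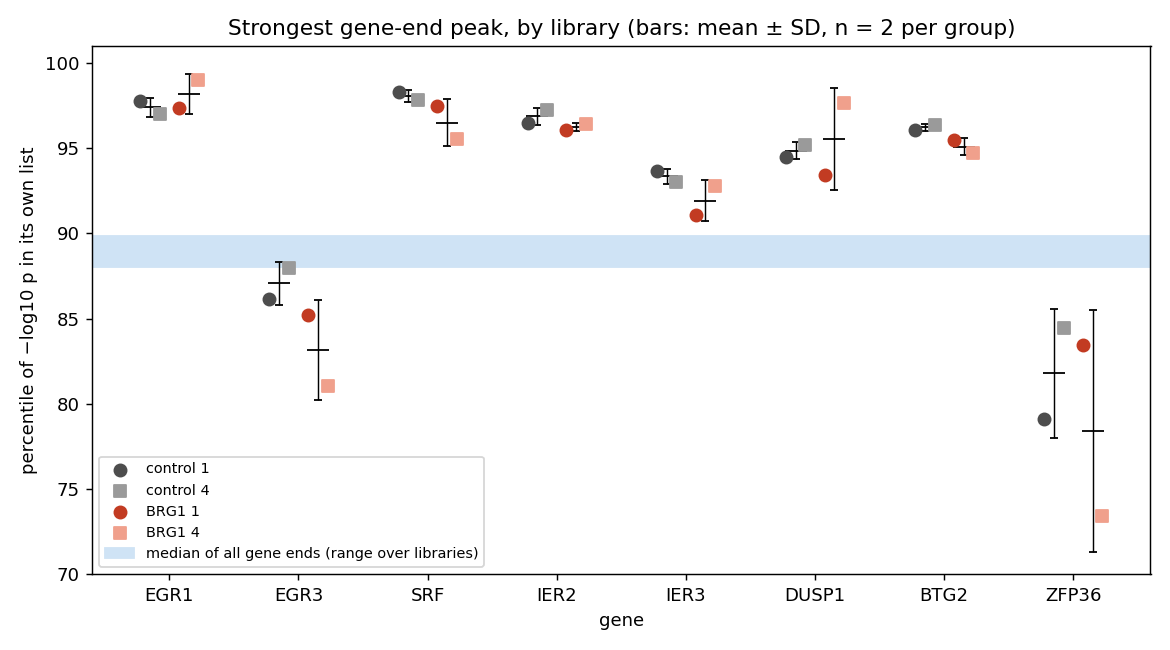
Percentile of the strongest gene-end peak within its own list for the 8 genes with such a peak in all 4 libraries; points are libraries, black bars are the mean ± SD of the 2 libraries of a group, the band is the range over libraries of the median of all gene ends, and the y axis starts at 70. EGR3 and ZFP36 sit below the band and the other 6 above it, and the groups differ by at most −3.93 (EGR3).

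The members' gene ends stood on a high local background. From the deposited MACS2 fold and p-value, the pileup of each summit (the tags that cover it) and its local background (the tags expected from the surroundings) were solved. At EGR1 the pileup was 523, 455, 457 and 558 tags in control 1, control 4, BRG1 1 and BRG1 4, over backgrounds of 64.8, 56.4, 58.7 and 76.8 tags. At SRF it was 479, 426, 378 and 297 tags, not scaled to depth. Relative depths were 93.5% (control 4), 81.2% (BRG1 1) and 92.6% (BRG1 4) of control 1. The fold at SRF was 10.4, 10.5, 10.2 and 7.88 in the same library order. By fold, BRG1 1 was thus close to the controls and BRG1 4 was lower. In control 1 the median pileup was 376.5 tags over the 8 members and 154 over all gene ends, and the median background 45.5 and 9.70 tags. BRG1 4 gave the same order, with 317.5 against 117 tags of pileup and 41.0 against 8.94 tags of background. The authors' fold was in turn lower at the members, with a median of 8.25 in control 1 against 14.2 over all gene ends. Fold and percentile could therefore order regions differently. In control 1 the region 10855 bp below EGR1 had a fold of 18.5 and a percentile of 89.7, and the EGR1 gene end a fold of 7.97 and a percentile of 97.8.

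**Figure D4:**
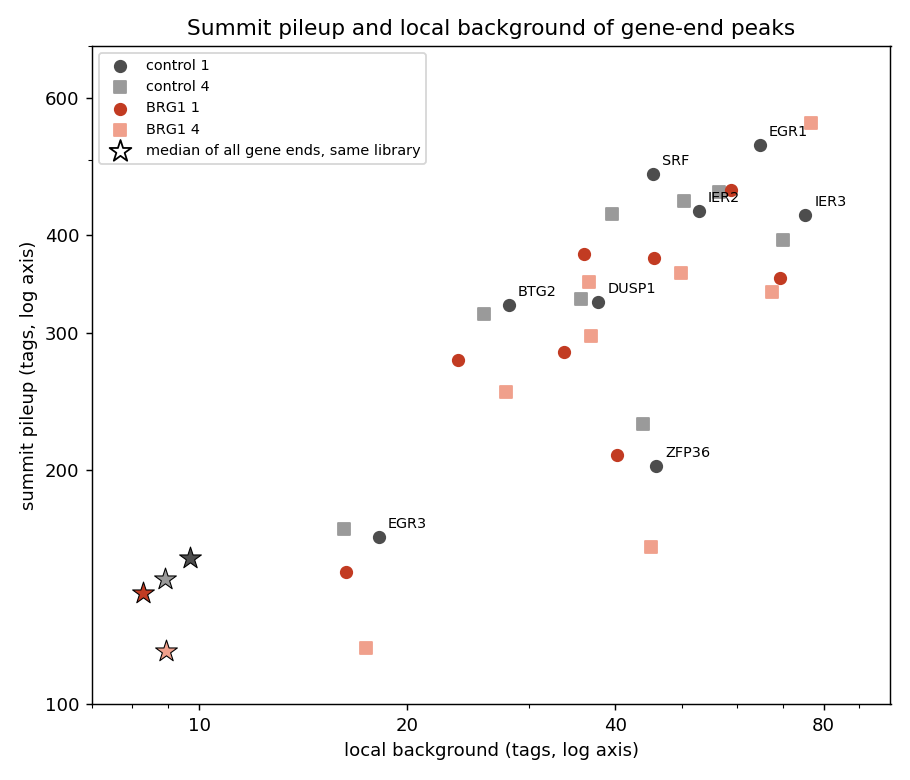
Summit pileup against local background in tags (log axes) for the gene-end peaks of 8 genes, with 1 point per library and labels beside the control 1 points; stars are the medians of all gene ends in the same libraries. All points of the 8 genes lie to the right of the stars, with EGR1 and IER3 at the highest backgrounds and EGR3 the nearest to the stars.

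Most regions of the windows were shared. All 4 libraries called 61 of 88 regions, against 61.8% of all union regions. BRG1-only regions numbered 0 of 88 (0.741% of all regions), so 0 of 10 genes had one, against 4.48% of protein-coding genes. Leaving out BRG1 1 or BRG1 4, so that 1 BRG1 library sufficed, gave 2, and leaving out control 4 gave 1. Control-only regions numbered 5 (4.41% of all regions), spread over 4 of 10 genes against 20.2% of protein-coding genes. They lay 1560 bp beyond EGR1 (140446862 to 140447229), near LOC110260567 in the NR4A1 window, at 2 places on the lower side of IER2 and inside FLOT1 in the IER3 window. All 5 were narrow, at 272 to 368 bp, and weak, at percentiles of 4.36 to 43.6. Without BRG1 1 there were 16 control-only regions and without control 4 there were 8. Regions called in every library but BRG1 4 were the next largest class, at 10 of 88, against 6.39% of all regions, while 0 were called in every library but BRG1 1 (2.73%), 0 in every library but control 4 (1.21%) and 1 in every library but control 1 (1.03%). The 10 regions without a BRG1 4 call were found in 7 of the 10 windows, all except EGR1, DUSP1 and BTG2, and had a median percentile of 36.3 against 83.6 for the 61 shared regions. A missing call means that no peak passed the caller's threshold in that library, not that the site was closed.

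**Figure D5:**
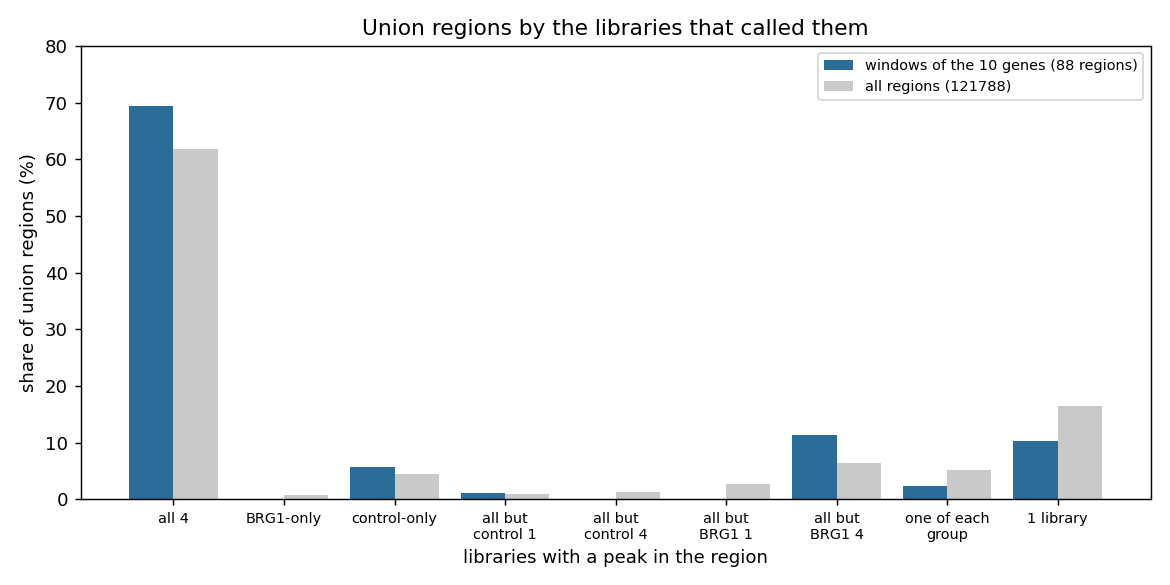
Share of union regions by the set of libraries with a peak there, for the 88 regions of the windows (blue) and all 121788 regions (grey). Regions called in all 4 libraries lead in both sets, and regions missing from BRG1 4 alone make up 11.4% in the windows and 6.39% in all.

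Among the 61 shared regions, 22 ranked lower in both BRG1 libraries than in both controls, against 34.0% of shared regions genome-wide, and 6 ranked higher, against 9.03%. With lists of equal length 11 of 60 ranked lower, against 18.3%, and 11 of 60 higher, against 19.5%. The members' counts were thus near the background in both directions. The median difference between group means was −1.59 in the windows and −3.01 over all shared regions, and −0.351 and 0.0176 with lists of equal length. Regions with a higher rank in both BRG1 libraries included those inside EGR2, 1792 bp outside EGR3 and over the SRF and CUL9 ends. In control 1, control 4, BRG1 1 and BRG1 4 the fold was 15.6, 14.6, 16.3 and 15.1 inside EGR2. It was 9.86, 9.43, 11.5 and 9.28 outside EGR3, and 11.7, 10.9, 12.7 and 12.2 over the SRF and CUL9 ends. By fold the groups thus overlapped at the EGR2 and EGR3 regions and not at the SRF and CUL9 ends. Summits of shared regions recurred closely, with a median spread over the 4 libraries of 24 bp, against 43 bp genome-wide.

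Gene ends of other pathway genes were examined in the same way. Of 49 listed genes, all matched to the gene table, 42 had such a peak in each library, beside 68.2% of all protein-coding genes, and 3 had none. In only the BRG1 or only the control group 0 had one, beside 0.199% and 0.532% of all protein-coding genes. All 8 paralogues had one in each library, from BTG1 at a mean percentile of 98.7 to EGR4 at 87.9. So did all 8 feedback genes, which include the MAP kinase phosphatase DUSP6 (98.3) and the signalling inhibitor SPRY2 (98.1). Of 19 other early genes 17 had one, among them the AP-1 subunits JUN (99.4) and FOS (91.3), while ATF3 and PHLDA1 had none. KLF4, a Krüppel-like factor, carried a control-only region at its ends beside its shared peaks, the 1 gene of the 49 with a private region. The share of all protein-coding genes with such a region at an end is not given here, so nothing is drawn from this count. Of 14 upstream factors 9 had one in each library, about the share of all genes, such as the SRF partner ELK1 (97.9). The SRF co-activator MRTFA had none. MRTFB, MAPK3 and RPS6KA3 had one in 1 library each, and ELK3 had one in 2 libraries.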

How the data were processed

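ATAC-seq peak lists of 4 libraries were analysed, 1 per library and not pooled. FastQC, BWA, Bowtie, SAMtools and MACS2, with no version or role, and the build Sscrofa11.1 are named per the submitters' processing notes. Sources used here do not give the Tn5 shift, duplicate handling or caller settings, which can change peak number and width. Per the file layout, the deposited fold is the caller's ratio of summit pileup to background within a library, and each −log10 p-value, deposited beside a −log10 q-value, comes from that caller. The deposited score is derived from the q-value and was not used for results.

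Peaks were placed on RefSeq gene models (no strand, exons or UTRs given), so gene ends replaced the planned gene starts. Peaks overlapping by at least 1 bp were merged into union regions. Percentiles are ranks of −log10 p within a list. Pileup and background were solved from fold and p (100% of peaks within 0.0001 of the larger of 1 and −log10 p). Groups were compared with exact permutation tests (two-sided) on library values. Scripts (Python 3.11.15, scipy 1.17.1) were tested on simulated data. Alternatives were a −log10 q of at least 5, lists of equal length, windows of 5 and 50 kb, gene ends of 3 kb, 50% overlap, each library left out and a replicate block. All 10 genes were named by rule; other genes were named as neighbours or list members, and examples from the lists were picked with their values in view. The members and lists were chosen with earlier results of these data known. The planned motif search was not run, as no sequence was used here. Since the absolute depth is unknown, values carry no counting interval.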

Additional observations from a re-analysis of the deposited data

How the results depend on the processing

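With 2 libraries per group no difference could pass the exact test, so stability refers to direction and size only. Of 207 values under alternative settings, 175 had the same direction or, for counts, lay within 1.5 times, 19 turned and 13 moved. The ratio of peak number in the windows stayed below 1 under every setting run for it, at 0.790 to 0.922 with a library left out. The ratio of covered length was 1.01 with lists of equal length, 1.04 with 5 kb and 1.02 with 50 kb windows, and 0.956 to 1.03 with a library left out. The share of list peaks gave 1.01 with 5 kb windows and 0.928 to 1.02 with a library left out. With 5 kb windows there were 1 control-only and 24 shared regions, and with 50 kb windows 1 BRG1-only, 9 control-only and 122 shared regions, since fewer or more regions were covered. Leaving out a library gave 0 to 2 BRG1-only and 5 to 16 control-only regions, since a call then had to be shared by fewer libraries. The mean gene-end peak was wider in BRG1 at 5 of 8 members, against 72.1% of all genes with such a peak, and at 2 to 5 with a library left out.

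A gene end of 3 kb let other regions lead: the percentile difference became 2.61 at EGR3 and 0.133 at ZFP36, and the width difference −59 bp at SRF and 13 bp at ZFP36. With a library left out, percentile differences ran from −0.0271 to 1.60 at EGR1, −1.43 to 2.79 at DUSP1 and −8.39 to 1.66 at ZFP36. Width differences ran from −22 to 95 bp at EGR3, −22 to 427 bp at SRF, −24.5 to 159.5 bp at IER2, −8 to 31 bp at DUSP1 and −344 to 11 bp at BTG2. The comparison of shared regions with lists of equal length (11 lower and 11 higher, against 22 and 6) was added after seeing the data. The replicate block, pairing libraries of the same number, gave a ratio of 0.854 for peak number (exact sign-flip p = 0.5, which is the lowest this design allows). The paired ratio was 0.993 for covered length and 0.974 for share (exact p = 1 for both). Deviations of same-numbered libraries correlated at −0.0379 over 75244 regions, and the labels do not say that a number marks a shared batch. Relative depth was lowest in BRG1 1, and the part of depth in missing calls was not tested.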
